A study of Homo sapiens with 4 samples.

Results

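The ATF3 binding described here lies at 5 genes for amino acid transporters that respond to stress: SLC1A5, SLC1A4, SLC7A5, SLC7A1 and SLC38A2. Peaks of the 4 deposited lists that shared at least 1 bp were merged into regions, and the regions that overlapped a gene or the 20 kb on either side of it were taken. This gave 30 of the 44826 regions on chromosomes 1 to 22 and X. The rule uses position alone and no measured level, although the genes were chosen with earlier results of these data known. SW480 is an established line from a human colorectal adenocarcinoma. Its cells were kept for 24 h in cystine-restricted medium (CR) or in full medium (FM), and 2 libraries were made for each medium. All 4 libraries come from the same line with the same ATF3 antibody, and the labels name no genetic change in either group. The assay, CUT&Tag, steers a transposase to antibody-bound chromatin, so that adapters are inserted close to ATF3 and the tagged fragments can be sequenced. The labels say only that the libraries of a medium are separate samples, so p-values here reflect sample-to-sample spread that could be purely technical. In the tests of single regions that spread is mostly pooled over many regions. Each group is a single culture condition of 1 cell line, and antibody-free control libraries were not used here.

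Amino acid transporters of the plasma membrane set how fast a cell can refill its pools of amino acids. When an amino acid runs short, or when proteins misfold, the integrated stress response raises translation of the transcription factor ATF4, which activates genes for amino acid uptake and synthesis. ATF3 is a bZIP factor that is itself induced in this response and can bind many of the same sites. SLC1A5 (ASCT2) is a sodium-dependent exchanger of neutral amino acids and a main route for glutamine. SLC1A4 (ASCT1), its close relative, exchanges alanine, serine and cysteine. SLC7A5 (LAT1), joined to the heavy chain SLC3A2, brings in leucine and other large neutral amino acids in exchange for glutamine. SLC7A1 (CAT1) carries the cationic amino acids arginine and lysine, and SLC38A2 (SNAT2) takes up small neutral amino acids together with sodium. ATF4 and its partners act on many genes of this kind through the C/EBP-ATF response element, a composite of a C/EBP and an ATF site.

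In RefSeq's annotation 3 of the 5 genes have a C/EBP-ATF response element, TGATGNAA on either strand, close to an annotated start. The sequences are shown because regions with peaks in all 4 libraries overlapped these promoters, as far as distances from the gene start can be carried from hg19 to RefSeq's build. Capitals mark motif matches, and position 0 is the first transcribed base of the start named. For SLC1A5 the match lies before the last of 3 annotated starts, at positions −97 to −90, on chr19:46784815-46785064 (GRCh38.p14, minus strand, positions −250 to −1). For SLC1A4 it lies across the second of 2 annotated starts, at positions −7 to 0 and on the opposite strand, on chr2:64989149-64989399 (GRCh38.p14, plus strand, positions −250 to 0). For SLC7A1, with 1 annotated start, the element lies at positions 7 to 14. It is within chr13:29595659-29595688 (GRCh38.p14, minus strand, positions 0 to 29), and a TGACG, the core of the cAMP response element, stands upstream at positions −85 to −81 on chr13:29595689-29595938 (positions −250 to −1).
SLC1A5 last start: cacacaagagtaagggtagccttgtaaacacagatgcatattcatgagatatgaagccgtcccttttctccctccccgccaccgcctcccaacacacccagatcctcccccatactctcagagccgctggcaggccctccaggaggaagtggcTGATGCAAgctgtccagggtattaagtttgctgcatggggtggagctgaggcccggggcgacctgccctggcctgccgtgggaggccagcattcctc
SLC1A4 second start: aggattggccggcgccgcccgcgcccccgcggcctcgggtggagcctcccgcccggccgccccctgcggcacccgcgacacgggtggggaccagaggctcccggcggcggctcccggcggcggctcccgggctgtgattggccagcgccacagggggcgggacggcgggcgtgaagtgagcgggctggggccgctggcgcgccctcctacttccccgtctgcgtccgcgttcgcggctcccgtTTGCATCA
SLC7A1 upstream of the start: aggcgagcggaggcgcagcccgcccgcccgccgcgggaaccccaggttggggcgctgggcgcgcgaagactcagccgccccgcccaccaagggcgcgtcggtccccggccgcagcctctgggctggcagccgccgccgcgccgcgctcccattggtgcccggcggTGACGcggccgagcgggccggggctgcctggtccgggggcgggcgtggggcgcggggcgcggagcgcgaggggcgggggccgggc
SLC7A1 downstream of the start: gcactgcTGATGAAAcctggcgccggaacc

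All 5 genes were found in RefSeq's promoter table, with 8 annotated starts and 300 bases for each (250 before and 50 after the start). Both strands were searched for 4 motifs. TGATGNAA occurred in 3.62% of the 34943 distinct promoters of all genes, TGACG in 24.5%, the AP-1 motif TGANTCA in 7.72% and the full cAMP response element TGACGTCA, which contains TGACG, in 1.84%. TGACG was also found at SLC7A5 and SLC38A2. TGANTCA and TGACGTCA had no match in these windows of the 5 genes. Of 24 other amino acid transporter genes 18 had a promoter in the table, and TGATGNAA occurred in 3 of them, SLC3A2, SLC38A1 and SLC1A3. Matches in the 5 genes and in these others are counted by gene, over all its starts. The percentages of all promoters count each promoter, so the units differ. A match is a description of the letters and does not show a bound site. The peaks of those 24 genes were not analysed here, since the tables used place genes in GRCh38 and the peaks are in hg19.

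A peak is described by its pileup and its height. The summit pileup is the number of 150 bp tags over its highest base, recovered from the deposited fold enrichment and −log10 p. The height is that pileup divided by the genome background of the library, which is the pileup expected from the number of tags kept. Heights are thus adjusted for the number of tags alone. That they can otherwise be set side by side between libraries is an assumption. The genome background was 1.30 and 1.08 tags in CR replicates 1 and 2 and 1.11 and 1.32 tags in FM replicates 1 and 2. With a usual human genome size of 2.7 Gb, an assumption here, these correspond to 23.4 and 19.5 M tags in the CR libraries and to 19.9 and 23.7 M tags in the FM libraries. A region is called common if all 4 libraries have a peak in it, gained if both CR libraries and neither FM library have one, and lost in the reverse case. Regions are numbered along each gene from upstream to downstream, with distances counted from the start of the gene in the hg19 interval of the rule, and their coordinates are in hg19. Peaks were listed per library, and an unlisted peak is one that missed the authors' criteria, not a measurement of no binding.

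Each of the 5 genes had at least 1 region with ATF3 peaks in all 4 libraries, and of those 10 regions the one inside SLC1A5 had the highest log2 change under cystine restriction. Of the 30 regions in all, 10 were common (33.3%, against 23.0% of all regions), 2 were gained (6.67%, against 12.7% of all regions) and none was lost (0.386% of all regions). A further 14 regions (46.7%, against 46.4%) had a peak in a single library, 9 of them in a CR and 5 in an FM library. These were weak peaks, with pileups of 9 to 19 tags. The 2 gained regions lay within SLC1A5 and just downstream of SLC1A4. The CR libraries had 24 and 17 peaks in the 5 windows and the FM libraries 16 and 15, or 20.5 ± 4.95 per CR library and 15.5 ± 0.707 per FM library (SD, n = 2 each), with a ratio of 1.32 between the means. Both CR counts were above both FM counts, but a two-sided exact permutation test cannot go below the p of 0.33 that it gave here with 2 libraries against 2. On chromosomes 1 to 22 and X the full lists held 33838 and 29607 peaks in CR and 17447 and 19132 peaks in FM. The ratio in the 5 windows was below the ratio of these full lists. Cut to equal numbers of their strongest peaks, the libraries gave a ratio of 0.839 in the windows, on the other side of 1.

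**Figure D1:**
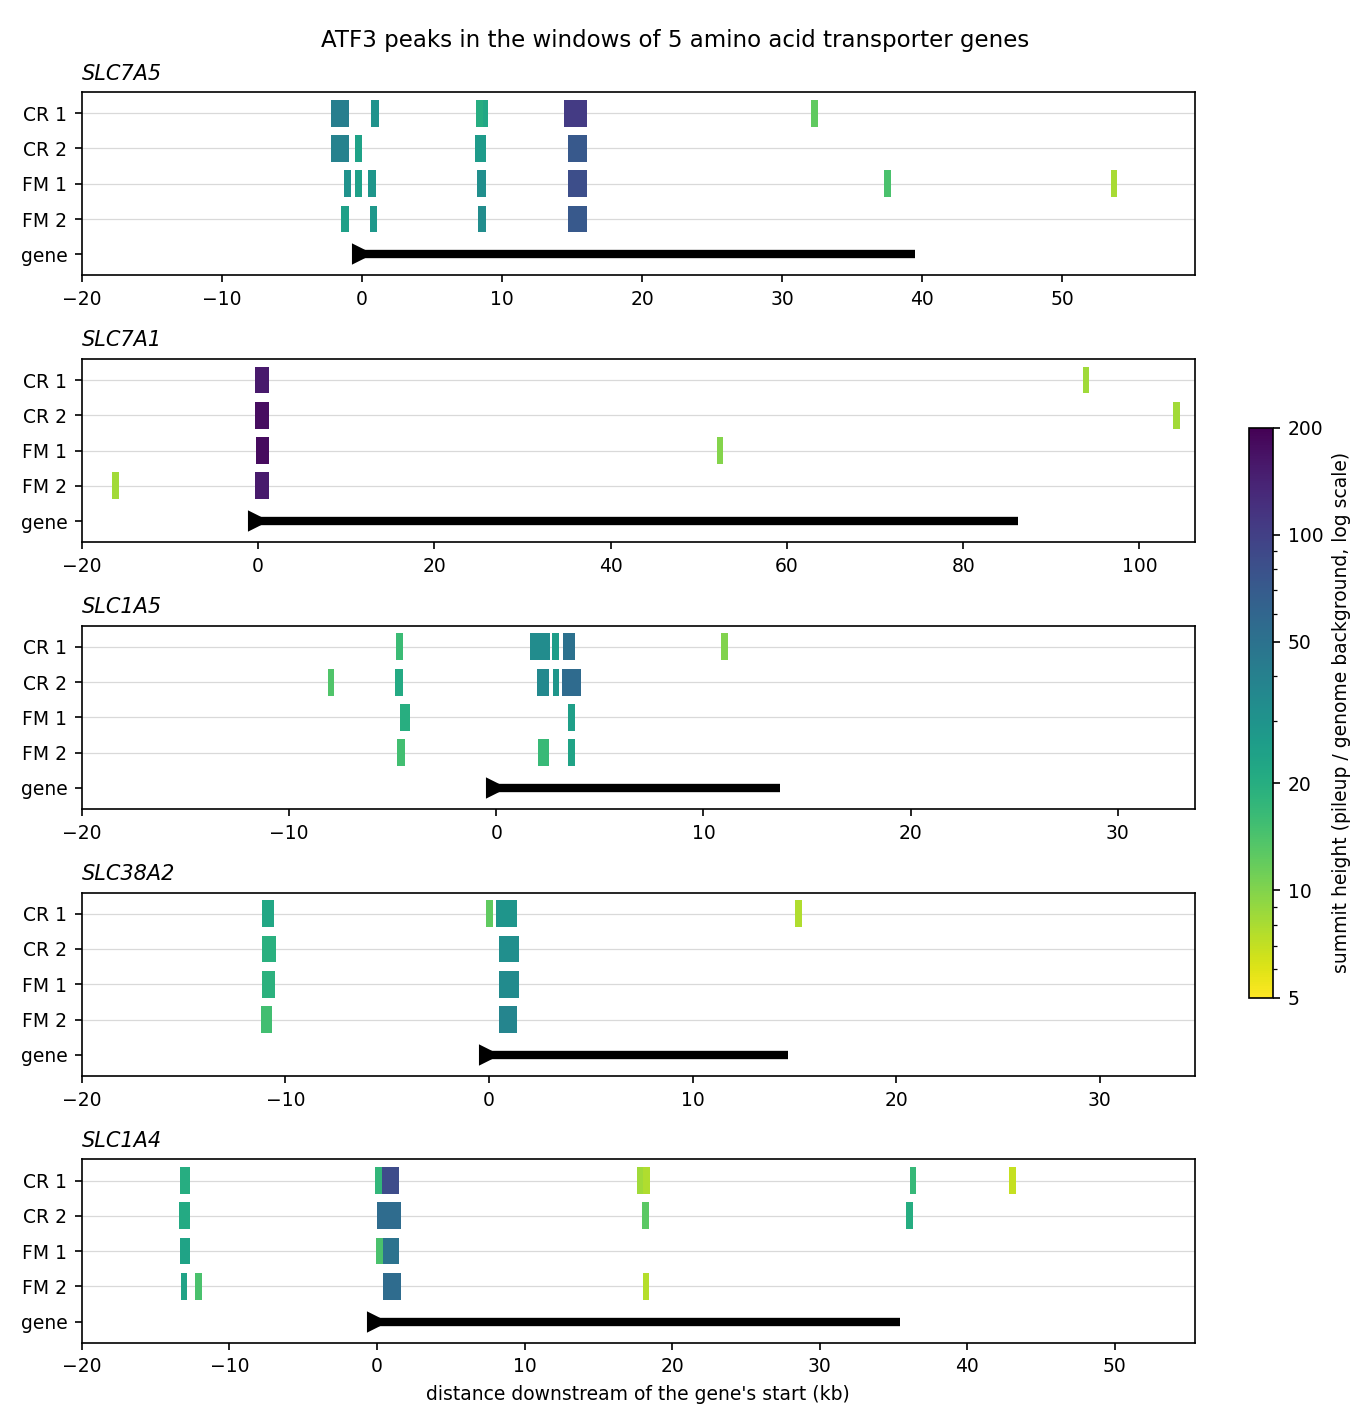
Peaks of each library (CR 1, CR 2, FM 1 and FM 2, top to bottom) along the 5 genes, plotted against the distance from the gene's start in kb, with the black bar as the gene and colour as summit height on a log scale (narrow peaks are drawn at a minimum width). All 4 libraries have a dark block at the start of SLC7A1, and the blocks inside SLC1A5 are wider and darker in the CR libraries.

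**Figure D2:**
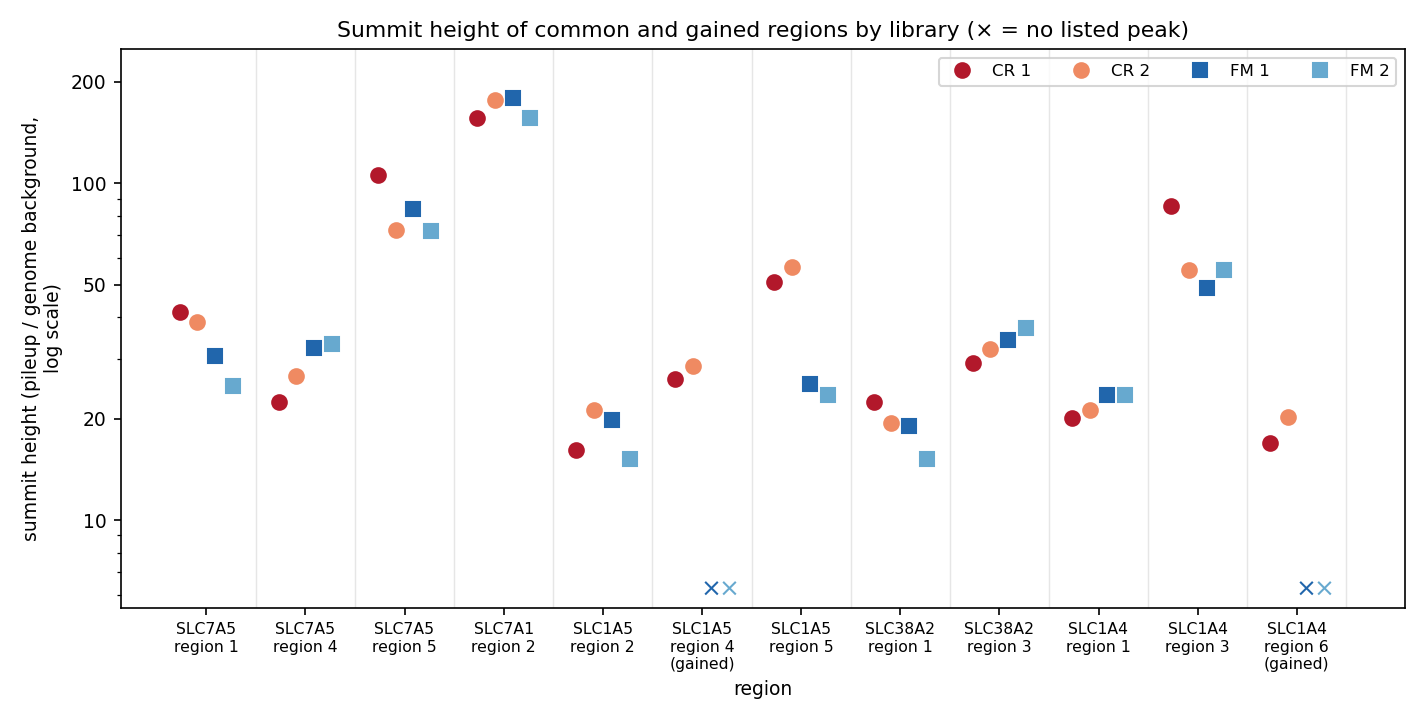
Summit height (pileup over genome background, log axis) in each library for the 10 common and 2 gained regions, with a cross where a library has no listed peak. The CR points lie above the FM points at SLC1A5 region 5 (50.9 and 56.3 against 25.3 and 23.5), SLC7A5 region 1 and SLC38A2 region 1. They lie below the FM points at SLC7A5 region 4, SLC38A2 region 3 and SLC1A4 region 1.

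At the 10 common regions the median log2 change of height, CR over FM, was 0.13, with a range of −0.43 to 1.13. The change was fitted by limma over all 10331 common regions, where its median was 0.53 (interquartile range 0.29 to 0.78). Of the 10 transporter regions 2 lay above the median of all and 8 below. The change was above 0 at 6 of the 10, against 92.0% of all common regions, and below 0 at 4, against 8.01%. Both CR heights were above both FM heights at 3 of the 10, against 72.8% of all, and below both FM heights at 3 of the 10, against 2.38% of all. With Benjamini-Hochberg adjustment over all regions, limma called 43.2% of them higher (4461) and 0.407% lower (42) at an adjusted p under 0.05. Among the 10, it called 2 higher and 0 lower, and at an unadjusted p under 0.05 it gave 3 higher and 0 lower. After each library was centred on its own median over common regions, which removes the shift shared by the genome, limma called 512 regions higher (4.96%) and 442 lower (4.28%). Of the 10 transporter regions it then called 0 higher and 4 lower, and at an unadjusted p under 0.05 it gave 1 higher and 5 lower. Only the 10 regions listed in every library could be fitted, so these counts say nothing of the other 20.

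**Figure D3:**
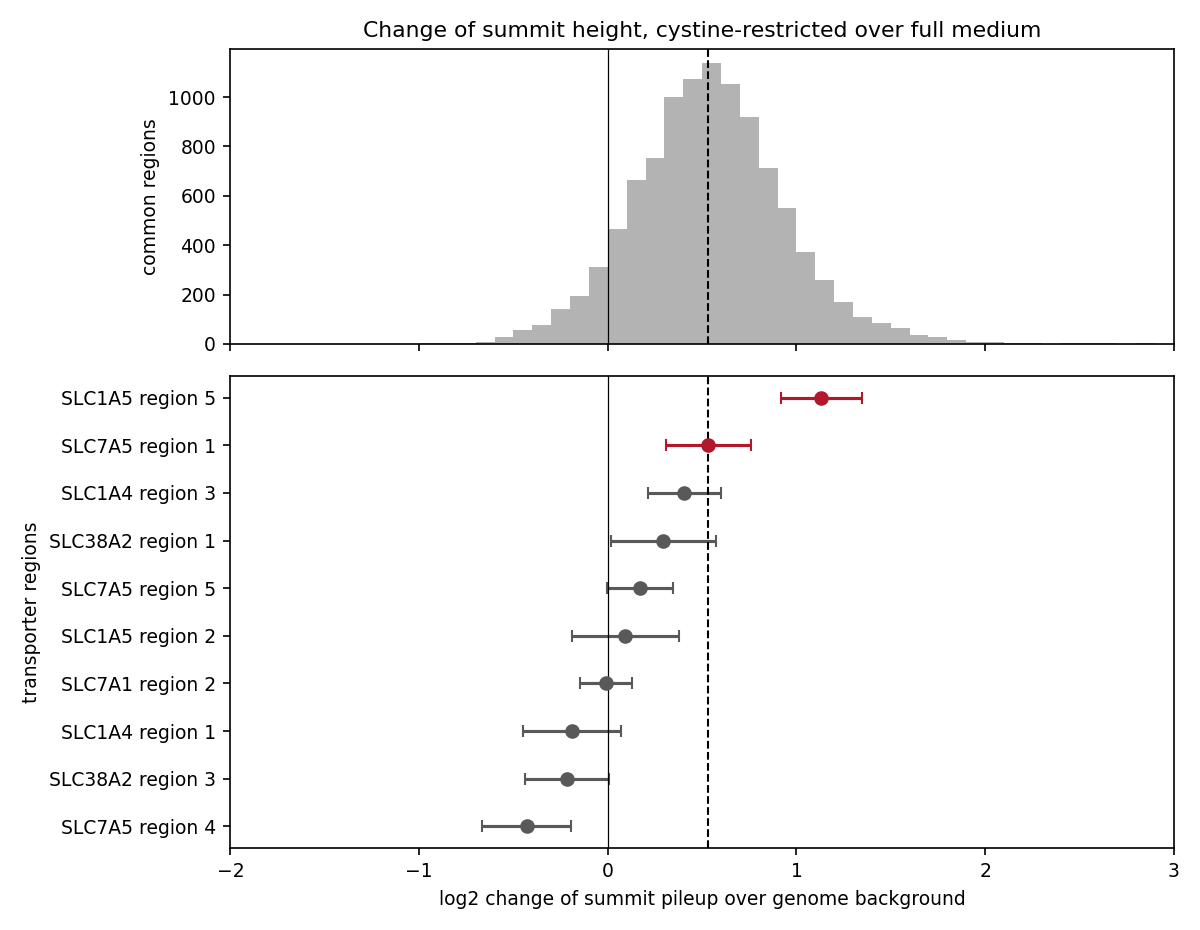
Number of common regions by log2 change of summit height, CR over FM (top), and the same change at the 10 transporter regions with the standard error of limma as bars (bottom); the dashed line is the median of all common regions and red marks an adjusted p under 0.05 by limma. SLC1A5 region 5 stands at 1.13, SLC7A5 region 1 at 0.53, close to the dashed line, and the others below it.

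SLC1A5, the glutamine route, had the clearest rise. Its gene (chr19:47278140-47291851, hg19, minus strand) had 6 regions in its window, and at 3 neighbouring ones inside the gene the CR heights exceeded each listed FM height or had no FM peak beside them. Region 5 (chr19:47287742-47288673, 3178 to 4109 bp downstream of the start) had summit pileups of 66 and 61 tags in CR replicates 1 and 2, against 28 and 31 tags in FM replicates 1 and 2. The heights were 50.9 and 56.3 under restriction and 25.3 and 23.5 in full medium, so the groups did not overlap. The log2 change was 1.13 ± 0.22 (SE), a 2.19-fold rise, with a limma adjusted p of 7.1e-05 over all common regions. It stood at the 93.2nd percentile of all common regions and 0.60 above their median. After centring it was 0.56 with a limma adjusted p of 0.061, and over all alternatives the adjusted p lay between 4.9e-06 and 0.061. Within their own lists, the peaks stood among the top 9.29% and 7.46% in CR and the top 26.3% and 27.4% in FM. The lists held 33838 and 29607 peaks in CR and 17447 and 19132 in FM. The same rank is thus a smaller percentage in CR, which widens the difference between these shares.

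The gained region of SLC1A5, region 4 (chr19:47288897-47289052), lay 2799 to 2954 bp downstream of the start and had pileups of 34 and 31 tags in CR replicates 1 and 2. Neither FM library listed it. At the local background of the nearest listed peak, 14 tags in FM replicate 1 and 16 in FM replicate 2 would have reached the lowest listed −log10 p. The peaks of region 4 stood mid-list, among the top 53.2% in CR replicate 1 and 45.8% in CR replicate 2. With each list cut to its 17447 strongest peaks, the CR replicate 1 peak dropped out, and region 4 was no longer gained. Region 3 (chr19:47289275-47290243), 1608 to 2576 bp downstream, had 44 and 38 tags in the CR libraries and 22 tags in FM replicate 2, with no listed peak in FM replicate 1. Its heights were 33.9 and 35.1 in CR and 16.7 in the single FM library. The remaining common region, region 2 (chr19:47296034-47296761), lay 4183 to 4910 bp upstream. It had heights of 16.2 and 21.2 in CR and of 19.9 and 15.2 in FM, which overlap. The log2 change was 0.093 ± 0.28 (SE; limma adjusted p = 0.80). It turned to −0.48 after centring and to −0.10 without CR replicate 2 or FM replicate 2. Counted with upstream as negative, the summits lay at −4769 and −4772 bp in CR and at −4527 and −4550 bp in FM. The CR summits were thus outside the FM replicate 1 peak, which covered −4668 to −4183 bp. Regions 1 and 6 were single peaks of 15 tags in CR replicate 2 and 13 tags in CR replicate 1. The CR libraries had 5 peaks each in this window and the FM libraries 2 and 3, a ratio of 2.0 (exact permutation p = 0.33). The full lists were also longer in CR, with 33838 and 29607 peaks against 17447 and 19132 in FM. A ratio above 1 is therefore not particular to this window. With lists cut to equal numbers of strongest peaks the ratio in the window was 1.2, and with reciprocal overlap 3.0. No region came within 1 kb of the start that bounds the gene.

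The summits of SLC1A5 region 5 coincided with the element shown above for the start farthest downstream. That start lies 3780 bp downstream of the first one in RefSeq. The gene has the same length, 13712 bp, in the rule's hg19 interval and in RefSeq, and whether each base between keeps its distance in both builds was not checked. Summits lay 3687 bp downstream of the start in both CR libraries and 3708 and 3660 bp downstream in FM replicates 1 and 2. The centre of TGATGCAA was thus 0 to 26 bp from the summit in all 4 libraries, and the 4 summits were spread over 48 bp.

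**Figure D4:**
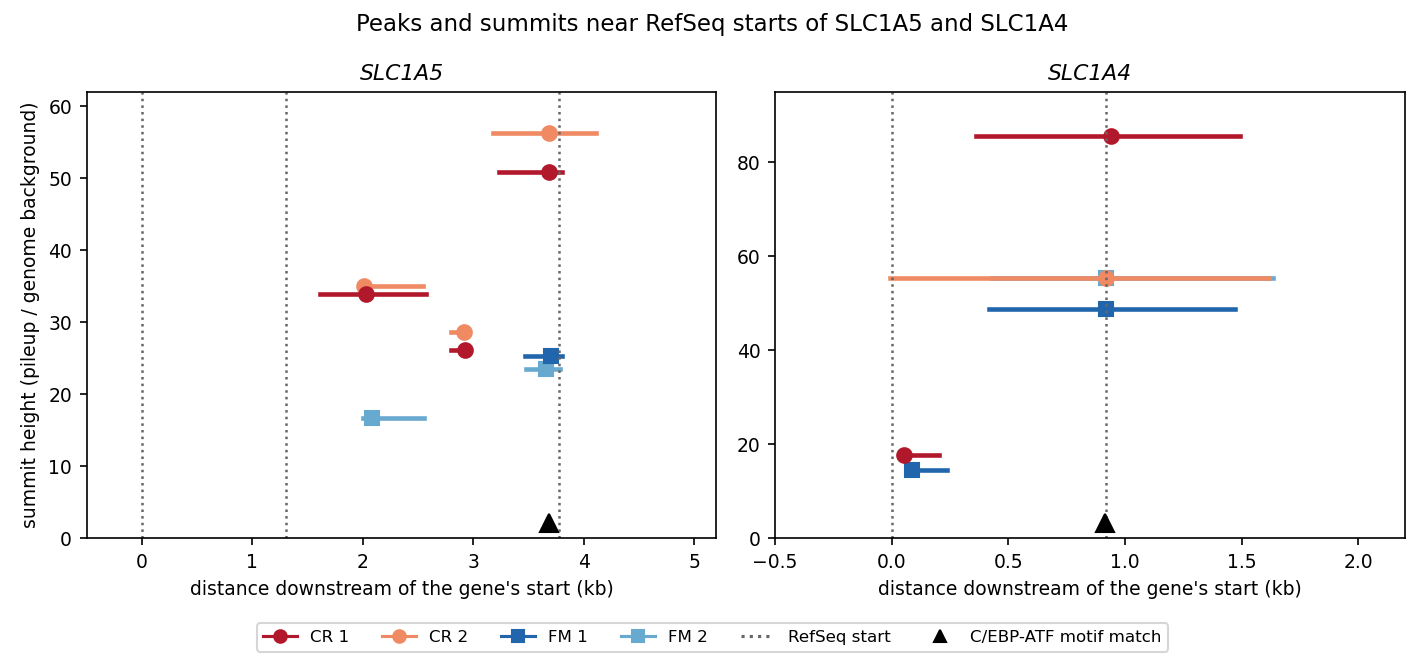
Peaks (lines) and summits (circles CR, squares FM) near the annotated starts of SLC1A5 and SLC1A4, plotted as summit height against distance from the gene's start in kb, with dotted lines at RefSeq starts and a triangle at the C/EBP-ATF motif match. The summits over both triangles line up across the 4 libraries, with CR above FM at SLC1A5 (50.9 and 56.3 against 25.3 and 23.5) and mixed heights at SLC1A4.

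SLC1A4, the serine and cysteine exchanger, carried a strong peak in both media, with its summit within 1 kb downstream of the start, and a gained region past its end. Its gene is on chr2:65215579-65250999 (hg19, plus strand) and its window held 7 regions. Region 3 (chr2:65215570-65217212) ran from 9 bp upstream to 1633 bp downstream of the start. It had summit pileups of 111 and 60 tags in CR replicates 1 and 2, against 54 and 73 tags in FM replicates 1 and 2. The heights were 85.5 and 55.4 in CR and 48.8 and 55.4 in FM, so CR replicate 1 stood apart and CR replicate 2 overlapped the FM libraries. The log2 change was 0.40 ± 0.19 (SE) and the limma adjusted p was 0.082. Without CR replicate 2 the log2 change was 0.72 with a limma adjusted p of 0.034, and without FM replicate 2 it was 0.50 with 0.043. After centring the direction turned, to −0.16 with a limma adjusted p of 0.64. Without CR replicate 1 the log2 change was 0.090, and over all alternatives the adjusted p lay between 0.034 and 0.83. In CR replicate 1 and FM replicate 1 the region held 2 peaks. The weaker ones had 23 and 16 tags, with summits 53 and 88 bp downstream of the start. With the summits of a region added up the log2 change was 0.35, with a limma adjusted p of 0.37. The highest summit of each library lay 921 to 941 bp downstream of the start. The second RefSeq start lies 920 bp downstream of the first. The TGATGNAA match on that start, printed above, was 4 to 24 bp from these highest summits. This holds on the condition that the start in the rule is RefSeq's first. The 2 gene lengths differ by 34 bp, so the distance may be off by up to that much.

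The gained region of SLC1A4, region 6 (chr2:65251434-65252106), began 35855 bp downstream of the start, past the end of the gene in the rule. It had 22 tags in each CR library, with heights of 16.95 and 20.3, while at the genome background 7 tags would have sufficed for a listing in each FM library. Region 1 (chr2:65202191-65202908), 12671 to 13388 bp upstream, had heights of 20.03 and 21.2 in CR and 23.5 and 23.5 in FM. The groups did not overlap, but the log2 change of −0.19 ± 0.26 (SE) did not pass (limma adjusted p = 0.55). After centring it was −0.76 with a limma adjusted p of 0.039, and the range over all alternatives was 0.039 to 0.77. Region 5, inside the gene, was listed in both CR libraries with 10 and 14 tags and in FM replicate 2 with 10 tags. Regions 2, 4 and 7 were single peaks of 9 to 19 tags.

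SLC7A5, the leucine transporter, had the most regions, 8, of which 3 were common. The log2 changes of these 3 were of both signs, but all 3 were below 0 after centring and above 0 with the summits of a region added up. The gene is on chr16:87863629-87903100 (hg19, minus strand). The strongest was region 5 (chr16:87887060-87888680), inside the gene and 14420 to 16040 bp downstream of the start. Its pileups were 137 and 79 tags in CR replicates 1 and 2, against 93 and 95 tags in FM replicates 1 and 2. The heights were 105.6 and 72.9 in CR and 84.0 and 72.1 in FM, which overlap, and the log2 change was 0.17 ± 0.17 (SE; limma adjusted p = 0.41). Without CR replicate 1 it was −0.095. After centring it was −0.40 with a limma adjusted p of 0.081, and over all alternatives the adjusted p lay between 0.081 and 0.81. Its summits fell within 24 bp of each other in the 4 libraries, and its peaks ranked in the top 2.23% to 6.55% of each list.

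Upstream of the SLC7A5 start, region 1 (chr16:87904034-87905300, 934 to 2200 bp upstream) had 54 and 42 tags in the CR libraries and 34 and 33 tags in the FM libraries. Heights of 41.6 and 38.7 in CR lay above 30.7 and 25.03 in FM, but the summits were not at the same place. Counted from the start with upstream as negative, they ran from −1612 to −1014 bp, a spread of 598 bp. The FM replicate 1 peak covered only −1125 to −934 bp, so the CR summits at −1414 and −1612 bp lay outside it. The log2 change of 0.53 ± 0.22 (SE), a 1.45-fold rise, passed narrowly (limma adjusted p = 0.049) and equals the median of all common regions to 2 decimals. The limma adjusted p was 0.26 without CR replicate 1, 0.14 without CR replicate 2, 0.23 without FM replicate 2 and 0.95 after centring, at a log2 change of −0.035. With the summits of a region added up it was 0.15, and over all alternatives it lay between 0.018 and 0.95. Region 4 (chr16:87894245-87895045, 8055 to 8855 bp downstream) was lower in CR in every pair of libraries, without passing the test. It had 29 and 29 tags in CR, heights of 22.3 and 26.8, against 36 and 44 tags and heights of 32.5 and 33.4 in FM. Its summits were spread over 366 bp. Its log2 change of −0.43 ± 0.24 (SE; limma adjusted p = 0.13) was the lowest of the 10 and lay at the 0.755th percentile of all common regions. After centring it was −0.999 with a limma adjusted p of 0.0014. When the summits of a region were added up it was 0.031, since CR replicate 1 has 2 peaks there, and the adjusted p lay between 0.0014 and 0.94 over all alternatives.

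Next to the SLC7A5 start the lists disagreed within each medium. Region 2 (45 to 427 bp upstream) had 26 tags in CR replicate 2 and 27 tags in FM replicate 1, and no listed peak in the other two. Region 3 (436 to 1223 bp downstream) had 39 tags in CR replicate 1 and 32 and 37 tags in FM, and none listed in CR replicate 2. The local background around these peaks was 7.53 to 10.1 tags, high against the genome backgrounds of 1.08 to 1.32, so 20 to 23 tags were needed for a listing in the libraries without a peak. Regions 6 to 8 were single peaks of 9 to 16 tags.

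SLC7A1, the arginine and lysine transporter, had the highest ATF3 peak of the 5 genes, with heights that overlapped between the media. The gene is on chr13:30083551-30169825 (hg19, minus strand), and region 2 (chr13:30168579-30170170) spanned its start from 345 bp upstream to 1246 bp downstream. The pileups were 203 and 191 tags in CR replicates 1 and 2, against 198 and 206 tags in FM replicates 1 and 2. Heights of 156 and 176 in CR overlapped 179 and 156 in FM. The log2 change was −0.0105 ± 0.14 (SE), with a limma adjusted p of 0.95, and the 4 comparisons of single libraries across the media gave −0.19 to 0.17. These peaks ranked in the top 0.298% to 0.538% of each list. Only 7.61% of all common regions had a lower change. After centring the log2 change was −0.58, with a limma adjusted p of 1.5e-04, and over all alternatives the adjusted p lay between 1.5e-04 and 0.96. Summits lay 500 to 525 bp downstream of the start, 490 to 514 bp from the TGATGNAA match shown above. The other 4 regions of this window were single peaks of 9 to 11 tags, 2 in CR and 2 in FM libraries.

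SLC38A2, the sodium-coupled transporter, had a common region just inside its start whose CR heights lay below its FM heights without passing the test. The gene is on chr12:46751971-46766645 (hg19, minus strand). Region 3 (chr12:46765148-46766308, 337 to 1497 bp downstream of the start) had 38 and 35 tags in CR replicates 1 and 2, against 38 and 49 tags in FM replicates 1 and 2. Heights of 29.3 and 32.3 in CR were below 34.3 and 37.2 in FM, with no overlap. The log2 change of −0.22 ± 0.22 (SE) did not pass (limma adjusted p = 0.42). After centring it was −0.79 with a limma adjusted p of 0.0084, and the range over all alternatives was 0.0084 to 0.75. Its summits were spread over 390 bp, from 890 to 1280 bp downstream. Region 1 (chr12:46777127-46777835), 10482 to 11190 bp upstream, had heights of 22.3 and 19.4 in CR and 19.0 and 15.2 in FM. The log2 change there was 0.29 ± 0.28 (SE; limma adjusted p = 0.38), and −0.27 after centring. The summits of region 1 were spread over 384 bp. Regions 2 and 4 were single peaks of 16 and 10 tags in CR replicate 1. Region 2 lay on the start itself.

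The local background describes the same loci at a wider scale, since it counts the tags in the 10 kb around a summit. At SLC1A5 region 5 there were 629 and 532 such tags in CR replicates 1 and 2 and 288 and 384 tags in FM replicates 1 and 2. Over the genome background these are 7.27 and 7.36 in CR and 3.90 and 4.37 in FM, a log2 change of 0.82. These counts include the tags of the peaks themselves, and the CR and FM values did not overlap. At the 9505 common regions whose local background stood above the genome background in all libraries the median log2 change was 0.38 (interquartile range 0.19 to 0.56). Around the SLC7A1 start the values were 12.4 and 12.5 in CR and 13.2 and 11.7 in FM, a log2 change of 0.0051. At SLC7A5 region 4 they were 4.68 and 5.16 in CR and 5.53 and 5.92 in FM, a log2 change of −0.22. Both CR values were above both FM values at 5 of the 10 regions, against 74.5% of all. At SLC1A5 region 5 the deposited fold over local background was 6.42 and 6.90 in CR replicates 1 and 2. It was 5.45 and 4.73 in FM replicates 1 and 2. The media thus differed less in this fold than in height, as the local background was also higher in CR. No test was run on these values.

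By position the regions were spread over the genes and their flanks. Regions within 1 kb of the start that bounds the gene in the rule numbered 7, of which 4 were common, and they were found at each gene except SLC1A5, whose region 5 overlapped the last RefSeq start instead. A further 11 lay inside the genes, 6 upstream and 6 downstream, and of the downstream ones none was common. The 10 common regions were 709 to 1643 bp wide, with a median of 1046.5 bp, against 888 bp for all common regions. Exons and introns of the hg19 genes were not analysed here.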

How the data were processed

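ATF3 CUT&Tag of SW480 cells was deposited as 4 peak lists, 1 per library. Per the submitters' processing notes, the tools were MACS2 2.2.7.1, BWA 0.7.17, fastp 0.19.7 and bcl2fastq 2.17, with build hg19. MACS2 settings are not given in these sources. Each deposited peak carries the authors' fold enrichment (a ratio of summit pileup to local background), −log10 p, −log10 q and a whole-number score of 10 times the −log10 q. The lowest deposited −log10 q was 1.30. The folds and −log10 values are the authors' own and were used within a list.

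Since the fold is (pileup + 1)/(background + 1) and the −log10 p is Poisson, both terms can be solved. A whole-number pileup matched the −log10 p within 0.1% for 100% of peaks, and backgrounds were the genome value or multiples of 0.015, which is 150 bp tags over 10 kb. Peaks on chromosomes 1 to 22 and X were merged at 1 bp of overlap, and the highest summit of a library stands for it in a region. limma 3.58.1 (R 4.3.3, with trend) was fitted to log2 heights without a pseudocount, with Benjamini-Hochberg adjustment. Its prior over all common regions had 46.97 degrees of freedom. The SE and p of a region thus rest mostly on spread pooled over regions, not on its own libraries. An exact permutation test, two-sided, compared peak numbers. The recovery, the merging and limma were tested on simulated data. Scripts ran in Python 3.11.15 with pandas 2.3.3, scipy 1.17.1 and numpy 2.4.6. Promoters are RefSeq's (GRCh38.p14). Strands were taken from that table. All 5 genes are named, each common, gained or partly listed region is described, and single-library regions are summarised. Genes with similar patterns were not sought, as no hg19 annotation was used. The members and lists were chosen with earlier results of these data known. Tags in 10 kb and the pileups needed for a listing were added after the data had been seen. Reciprocal overlap was taken as a peak covering at least 50% of its merged region. The alternatives tried were peaks with −log10 q from 5 upward, equal numbers of top peaks, reciprocal overlap, other flanks, centring, a pseudocount of 5 tags, a mean pileup of at least 20 tags, added summits, each library left out and the replicate block.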

Additional observations from a re-analysis of the deposited data

How the results depend on the processing

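Gained regions in the 5 windows numbered 1 with lists cut to equal numbers of strongest peaks, 4 with reciprocal overlap of 50%, 1 with a flank of 0 kb and 2 to 9 with 1 library left out; lost regions numbered 0 to 3 with 1 library left out. Without a library fewer lists are required, which can raise both by construction. With the replicate block, pair 1 (the libraries numbered 1) gave 11 gained and 4 lost regions, and pair 2 gave 5 and 3. Common regions numbered 6 with reciprocal overlap and 6 with a flank of 0 kb. The ratio of peak numbers was 0.839 with equal numbers of top peaks, 1.30 as a mean over same-numbered pairs (replicate block) and 1.10 to 1.55 with 1 library left out. For SLC1A5 it was 1.2 to 3.0 in every alternative run. Centring turned the median log2 change of the 10 regions to −0.44, and leaving out a library gave −0.020 to 0.29. Centring also turned the change at SLC1A4 region 3 to −0.16, SLC1A5 region 2 to −0.48, SLC38A2 region 1 to −0.27, SLC7A5 region 1 to −0.035 and SLC7A5 region 5 to −0.40. With added summits SLC7A5 region 4 was at 0.031. With 1 library left out the change ran from −0.10 to 0.29 at SLC1A5 region 2, from −0.11 to 0.087 at SLC7A1 region 2 and from −0.095 to 0.44 at SLC7A5 region 5. In the limma fit of all common regions, 512 were higher and 442 lower after centring, 1603 and 16 with added summits, and 1868 to 4913 and 12 to 44 with 1 library left out. Among the 10 regions, 0 were higher and 4 lower after centring, 1 was higher with added summits, and 1 to 2 with 1 library left out. A pseudocount of 5 tags, a mean pileup of at least 20 tags and the replicate block changed no call or direction at the 10 regions. With 1 library left out, limma took the spread of each region wholly from the trend over all common regions. The lone library of its medium is assumed to vary in the same way. Deviations of same-numbered libraries had a correlation of 0.012 over common regions, and with only 2 numbers the samples cannot be taken as paired. For the other shifts named here the cause was not tested. Depth limits the weak peaks: the lowest listed pileup was 6 tags in CR replicate 2 and 7 in the other libraries.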
